A study of Mus musculus with 18 samples.

Results

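miR-155-5p, miR-146a-5p and miR-146b-5p are guide strands of microRNAs known for their part in inflammation, and they made up 3 of the 1907 mature miRNAs in the table, of which 1232 had any read. They were chosen by name, each as the table row that carries its mature name, and the measured value used in choosing them was the sum of mapped reads over the 6 groups of libraries. That sum was 71121.3 for mmu-miR-155-5p (rank 89 of all mature miRNAs), 123281.8 for mmu-miR-146b-5p (rank 66) and 229.7 for mmu-miR-146a-5p (rank 445). The sums are given as a description, and no threshold was set on them. Earlier results of these data were known when the members were chosen. Each member had a single row, passed the filter on low counts and was among the 534 miRNAs tested.

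The libraries came from NIH/3T3, an established mouse embryonic fibroblast line. The 3 conditions were wild-type cells (WT) and cells collected on day 3 (KD3) or day 6 (KD6) of siRNA treatment against Pus1, an enzyme that converts uridine in RNA to pseudouridine (Ψ). From each, RNA shorter than 200 nt was sequenced before (input) and after immunoprecipitation with a mouse monoclonal antibody against Ψ (Ψ-IP), which gave 6 groups of 3 replicates named A, B and C. The paper's Ψ-IP method also describes a narrower size selection of small RNA on a gel before the antibody was added. All groups share this 1 line, and nothing in the labels says whether the replicates were separate cultures, so p-values measure the spread between these libraries, which may be technical. The table lists miRNAs only, and the level of Pus1 was not analysed here.

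miR-155 is cut from a noncoding transcript that is switched on by Toll-like receptor and NF-kB signalling, and it lowers brakes on the response such as Socs1 and Inpp5d. miR-146a is induced by the same signals, and the miR-146 pair acts the other way, by lowering the adaptors Irak1 and Traf6. In each hairpin, 1 arm is usually kept as the guide strand in Argonaute and the other, the passenger strand, is mostly degraded.

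The mature sequences are shown because Ψ is made from uridine and because miR-146a-5p and miR-146b-5p are nearly the same molecule. They are given 5′ to 3′ from RefSeq (GRCm38.p6), with the seed, bases 2 to 8, in capitals.
miR-155-5p: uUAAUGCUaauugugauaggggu
miR-146a-5p: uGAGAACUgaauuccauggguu
miR-146b-5p: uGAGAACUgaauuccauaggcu
miR-155-3p: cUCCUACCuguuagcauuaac
miR-146b-3p: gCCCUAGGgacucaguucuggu

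All 3 guide strands begin with uridine. The miR-155-5p seed was carried by no other mature mouse miRNA in the RefSeq table, and the miR-146 seed by these 2 alone. Counted from the 5′ end, the first 17 bases of miR-146a-5p and miR-146b-5p were identical, and they differed by G18A and U21C (miR-146a-5p first). The deposited counts divide a read among the places it matches, so counts of these 2 may not be fully separated. How many reads they shared was not measured, and values of miR-146a-5p are uncertain. Each member, miR-155-5p included, had counts that were not whole numbers, so such counts do not show sharing between these 2. The passenger strands of the 2 hairpins shared only 4 of 22 positions.

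The miRNAs lie on 3 chromosomes. miR-155-5p occupies bases 84714143 to 84714165 of the plus strand of chromosome 16, in a hairpin (84714140 to 84714204) that falls in an exon of the lincRNA gene Mir155hg. miR-146b-5p occupies bases 46342790 to 46342811 of the plus strand of chromosome 19, in a hairpin (46342762 to 46342870) inside the protein-coding gene Mfsd13a and outside its exons, hence intronic. miR-146a-5p occupies bases 43374435 to 43374456 of the minus strand of chromosome 11, in a hairpin (43374397 to 43374461, gene Mir146) that overlapped no other annotated gene.

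One library was far shallower than the rest. Replicate A of the KD6 input held 241109 mapped reads, and the other 17 libraries held 3989031 to 15099781. The members' KD6 results are therefore also given without that library. Fibroblast and mesenchymal markers (6 of 6 detected) summed to between 348300 and 580700 normalised read counts (CPM) in the input libraries. Most of that sum was miR-21a-5p, with a mean of 399100 CPM in input. The sum was 79380 to 205700 CPM in the Ψ-IP libraries. The 6 blood-cell markers summed to 0 to 2.40 CPM in all libraries. The defining blood-cell marker miR-142a-3p had 1 read and miR-223-3p had 3 reads in the 18 libraries together. The liver marker miR-122-5p was at 27.3 to 77.2 CPM in input and 88.0 to 335.5 CPM in Ψ-IP libraries, and 1 of the 4 pluripotency markers had reads, 5 in a single library.

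miR-155-5p was the member most enriched by Ψ-IP. In input it was at 236, 255 and 273 CPM in WT, at 211, 197 and 193 CPM in KD3 and at 211, 262 and 335 CPM in KD6 (replicates A, B and C). In Ψ-IP libraries it was at 1303, 1194 and 1454 CPM in WT, at 928, 1135 and 1489 CPM in KD3 and at 2232, 1874 and 1692 CPM in KD6. Every Ψ-IP library lay above every input library, so that the strand moved from rank 120 of 534 in WT input to rank 50 in WT Ψ-IP.

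The fit over all 534 miRNAs gave a log2 ratio of IP to input for miR-155-5p of 2.37 ± 0.21 (SE) in WT, a 5.17-fold difference (quasi-likelihood test in edgeR, Benjamini-Hochberg adjusted p = 4.85e-09). The log2 ratio was 2.56 ± 0.21 in KD3 (adjusted p = 1.87e-09) and 2.82 ± 0.22 in KD6 (adjusted p = 4.87e-10) by the same edgeR test. Without the shallow KD6 input library it was 2.48 in KD6 (adjusted p = 4.01e-09), and without WT input replicate C it was 3.14 in WT (adjusted p = 1.09e-09). Calls were common in these comparisons: 66.7% of all tested miRNAs passed in WT, 67.0% in KD3 and 68.7% in KD6, with 26.2%, 28.1% and 31.1% higher in IP and 40.4%, 39.0% and 37.6% lower. A gap between groups was common too, since the 2 groups did not overlap for 73.4%, 74.0% and 58.6% of miRNAs in WT, KD3 and KD6. miR-155-5p ranked 22nd of 534 by its log2 ratio in WT, 20th in KD3 and 38th in KD6.

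The zero of this scale depends on the scaling of the libraries. The median log2 ratio over all miRNAs was -0.35 in WT, -0.25 in KD3 and -0.28 in KD6 with TMM factors, and upper-quartile factors moved it to 0.38, 0.41 and 0.46. They also raised the number called higher in IP from 140 of 356 to 221 of 383 in WT, from 150 of 358 to 227 of 393 in KD3 and from 166 of 367 to 230 of 389 in KD6. Using total mapped reads as library size moved the KD6 median to -1.14, with 110 of 397 called higher. Measured from the median, miR-155-5p stood 2.72 above it in WT, 2.81 in KD3 and 3.11 in KD6, and under the alternatives it stayed between 2.35 and 3.18 above it.

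**Figure D1:**
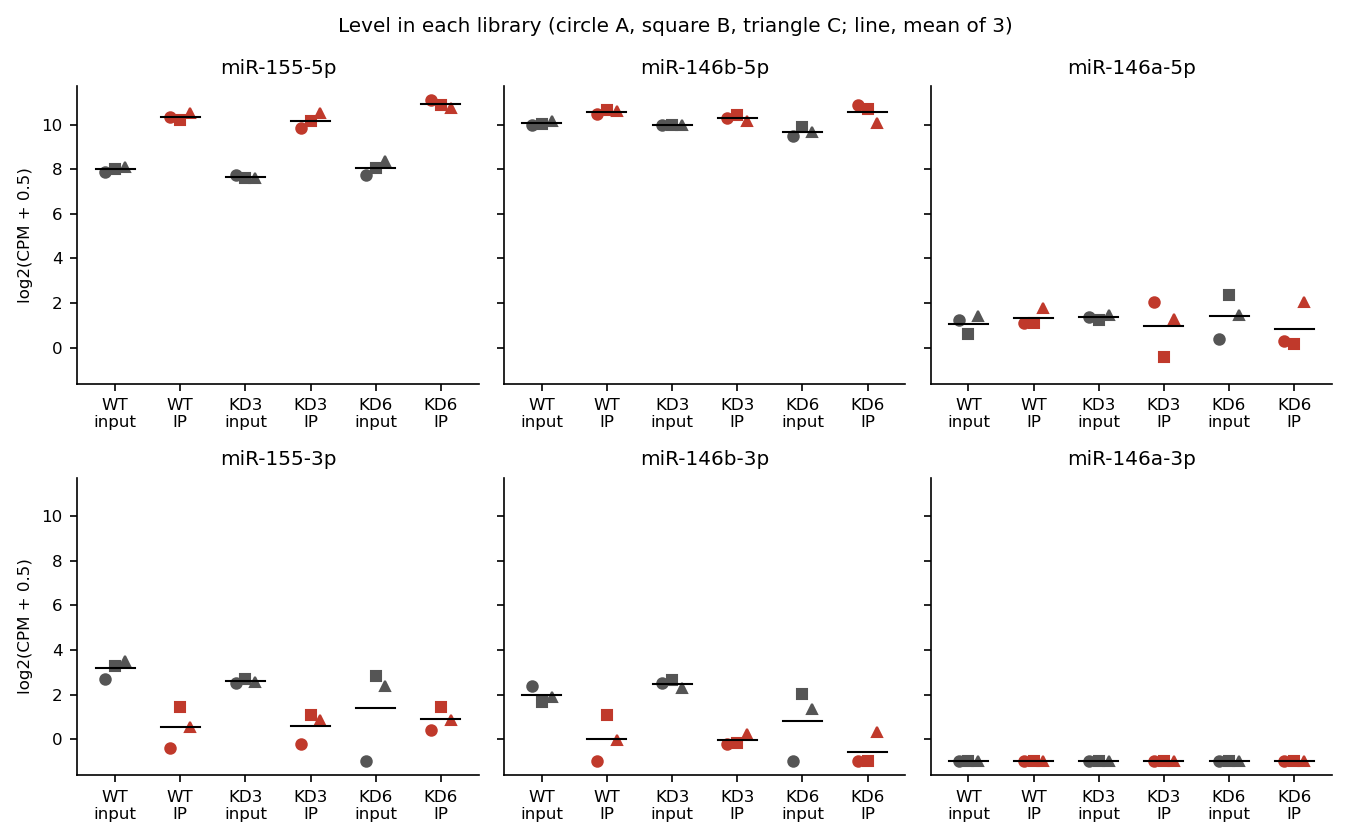
Level of each guide strand (top) and passenger strand (bottom) in the 18 libraries, as log2(CPM + 0.5) by group, with points for replicates and a line for the mean of 3 (grey, input; red, Ψ-IP). Red points lie above grey ones for miR-155-5p in every condition, and below them for miR-155-3p and miR-146b-3p except against the shallow KD6 input replicate A, which had no read of either.

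miR-146b-5p was the most abundant member in input and was less enriched. In input it was at 1020, 1044 and 1148 CPM in WT, at 1014, 1001 and 1004 CPM in KD3 and at 715, 950 and 817 CPM in KD6. In Ψ-IP libraries it was at 1419, 1609 and 1559 CPM in WT, at 1257, 1377 and 1141 CPM in KD3 and at 1861, 1639 and 1089 CPM in KD6. Within each condition the Ψ-IP libraries again lay above the input libraries on this scale, by a narrower gap.

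Its log2 ratio of IP to input was 0.51 ± 0.19 (SE) in WT, a 1.43-fold difference (edgeR, adjusted p = 0.021). It was 0.88 ± 0.19 in KD6 (edgeR, adjusted p = 0.000381), and 0.58 (adjusted p = 0.00436) without the shallow library. In KD3 the value was 0.32 ± 0.19 and did not pass (edgeR, adjusted p = 0.135). The WT value ran from 0.46 to 1.29 with 1 library left out, the highest without input replicate C (edgeR, adjusted p = 3.43e-05), and was 1.25 with upper-quartile factors (adjusted p = 5.58e-05). These calls followed the scaling: the KD3 value was 0.58 and passed in DESeq2 (adjusted p = 0.00689), whereas with total mapped reads as library size it was -0.007 in KD3 and 0.019 in KD6. The WT and KD6 calls were lost without a filter on low counts, at 0.37 (edgeR, adjusted p = 0.218) and 0.31 (adjusted p = 0.328). The KD6 call was also lost without Ψ-IP replicate A, at 0.38 (edgeR, adjusted p = 0.0605), and the KD3 value passed without input replicate A, at 0.84 (adjusted p = 0.00261), or without input replicate C, at 0.81 (adjusted p = 0.00305). Measured from the median of all miRNAs, miR-146b-5p stood 0.86 above it in WT, 0.57 in KD3 and 1.17 in KD6, and it stayed above the median under each alternative (0.31 to 1.30).

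miR-146a-5p was close to the limit of detection. Its estimated counts were 14.8, 10.7 and 19.4 in WT input, 24.3, 20.1 and 14.8 in KD3 input and 0.2, 25.9 and 21.4 in KD6 input. In Ψ-IP libraries they were 6.4, 8.2 and 18.4 for WT, 10, 0.6 and 11.7 for KD3, and 2, 1.4 and 19.4 for KD6. The groups overlapped in every condition.

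Its log2 ratio of IP to input did not pass in any condition, at 0.31 ± 0.62 (SE) in WT (edgeR, adjusted p = 0.678), -0.02 ± 0.64 in KD3 (adjusted p = 0.973) and -0.74 ± 0.68 in KD6 (adjusted p = 0.332). The 95% intervals ran from -0.90 to 1.52 in WT, from -1.28 to 1.24 in KD3 and from -2.07 to 0.60 in KD6. A difference of the size of that of miR-155-5p lay outside all 3 intervals on this scale. These low counts may include reads shared with miR-146b-5p, so the intervals do not settle the enrichment of miR-146a-5p itself. Replicate C of the KD6 Ψ-IP held most of that group's reads, and without it the KD6 value was -2.58 (edgeR, adjusted p = 0.0123). In KD6 without the shallow input library the value was -0.97 (edgeR, adjusted p = 0.224). In WT it ran from 0.031 to 1.21 with 1 library left out, the highest without input replicate C (edgeR, adjusted p = 0.174).

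**Figure D2:**
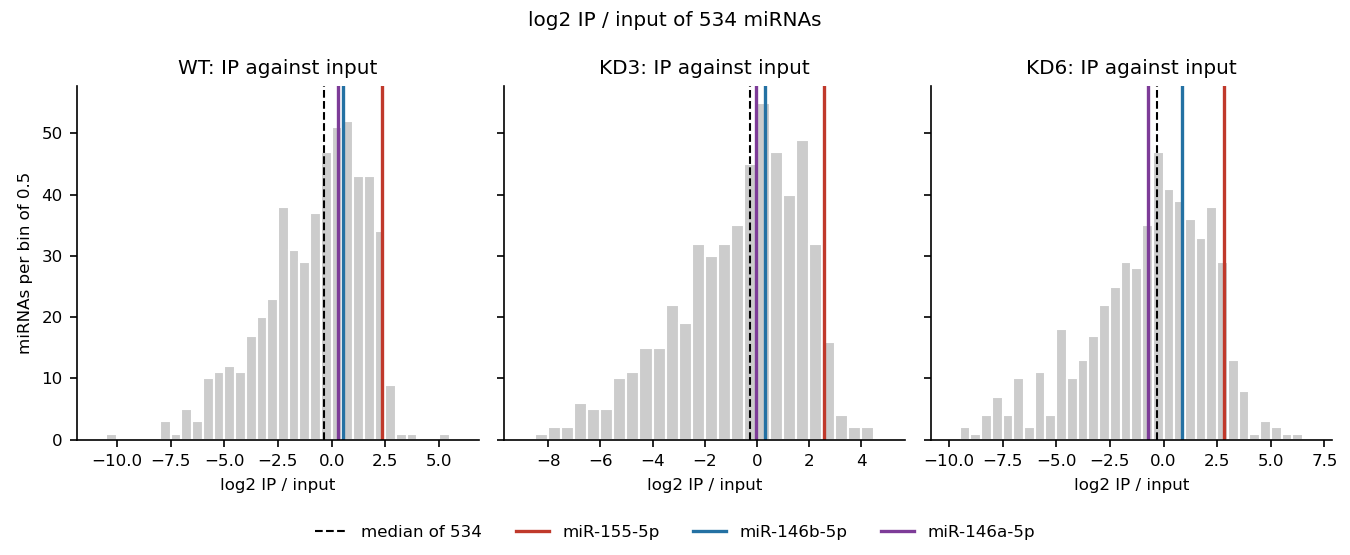
Number of the 534 tested miRNAs by log2 ratio of IP to input in each condition (bins of 0.5), with the 3 members as coloured lines and the median of all miRNAs dashed. miR-155-5p stands 2.72, 2.81 and 3.11 above the median in WT, KD3 and KD6, near the right edge, and miR-146b-5p and miR-146a-5p stand in the middle.

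The passenger strands went the other way from their guides. miR-155-3p had 48, 97.5 and 99.5 counts in WT input and 1, 11 and 6 in WT Ψ-IP. It had 62, 64.5 and 36 counts in KD3 input and 1, 4 and 8 in KD3 Ψ-IP, and 0, 37 and 46 counts in KD6 input and 2.3, 5 and 7 in KD6 Ψ-IP. In WT and KD3 the groups did not overlap, whereas in KD6 they did, through the 0 in the shallow library, where a count of 0 allows up to 3 counts.

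The log2 ratio of IP to input of miR-155-3p was -2.88 ± 0.52 (SE) in WT (edgeR, adjusted p = 6.24e-05), -2.28 ± 0.57 in KD3 (adjusted p = 0.00131) and -1.92 ± 0.59 in KD6 (adjusted p = 0.0067). Without the shallow library the KD6 value was -2.19 (edgeR, adjusted p = 0.00185). The KD6 call was lost without either of the other inputs, at -1.08 without replicate B (edgeR, adjusted p = 0.178) and -1.46 without replicate C (adjusted p = 0.0722), with upper-quartile factors (-1.10, adjusted p = 0.0982) and in DESeq2 (-1.52, adjusted p = 0.0513). In WT the value ran from -3.71 without Ψ-IP replicate B to -1.96 without input replicate C and kept its call (edgeR). miR-146b-3p had 37.2, 28 and 29 counts in WT input against 0, 8 and 3 in WT Ψ-IP, 61, 62 and 29 in KD3 input against 1, 1 and 4 in KD3 Ψ-IP, and 0, 20 and 20 in KD6 input against 0, 0 and 4 in KD6 Ψ-IP. It was thus also lower after Ψ-IP, with log2 ratios of -2.24 ± 0.66 in WT (edgeR, adjusted p = 0.0052), -3.26 ± 0.73 in KD3 (adjusted p = 0.000545) and -2.77 ± 0.87 in KD6 (adjusted p = 0.00723). Without the shallow library its KD6 value was -3.00 (edgeR, adjusted p = 0.00501). The call was lost in KD6 without input replicate B, at -1.80 (edgeR, adjusted p = 0.139), and in WT without input replicate C, at -1.58 (adjusted p = 0.0782). The WT value was -3.55 without Ψ-IP replicate B and the KD3 value -3.90 without Ψ-IP replicate C. Replicate C was the only KD6 Ψ-IP library with a read of miR-146b-3p, so that no read was left in that group without it and no fold is given. miR-146a-3p had no read in any of the 18 libraries.

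Ratios between 2 miRNAs of the same library need no scaling, and they gave the test of how the members differ. In input, the ratio of miR-155-5p to miR-146b-5p was 0.232, 0.244 and 0.238 for WT, 0.208, 0.197 and 0.192 for KD3 and 0.298, 0.276 and 0.409 for KD6. After Ψ-IP it was 0.919, 0.742 and 0.933 for WT, 0.739, 0.824 and 1.31 for KD3 and 1.20, 1.14 and 1.55 for KD6. miR-146b-5p thus outnumbered miR-155-5p in all 9 input libraries, and after Ψ-IP the 2 were near parity.

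The IP to input difference of this ratio was 1.85 on the log2 scale in WT, 2.22 in KD3 and 1.996 in KD6, and groups did not overlap in any condition. An exact permutation test of 3 against 3 cannot go below p = 0.1, which each condition reached. Stratified over the 3 conditions the mean difference was 2.02, or 4.06-fold (two-sided exact permutation test, p = 0.00025, the smallest this design can give, and 0.000333 adjusted over the 4 ratios tested). It was 1.94 to 2.08 under the alternatives, and 2.004 without the shallow library.

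The ratio of guide to passenger strand rose by more. For miR-155 it was 24.7 to 38.9 in WT input and 516 to 3301 in WT Ψ-IP, a log2 difference of 5.49, and the differences were 4.88 in KD3 and 4.26 in KD6 (4.60 without the shallow library). Over the conditions the mean difference was 4.88, or 29.4-fold (exact permutation test, p = 0.00025, adjusted p = 0.000333). For miR-146b it was 216 to 381 in WT input and 941 to 10780 in WT Ψ-IP, with log2 differences of 3.31, 3.37 and 3.81 in WT, KD3 and KD6 (3.86 in KD6 without the shallow library) and a mean of 3.49, or 11.3-fold (exact permutation test, p = 0.00025, adjusted p = 0.000333). Passenger counts after Ψ-IP were 0 to 11, so the size of both differences depends on the 0.5 counts added.

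miR-146a-5p and miR-146b-5p were not separated by this test. Their ratio was 0.00103 to 0.00192 in WT input and 0.00109 to 0.00194 in WT Ψ-IP, and the ranges of input and Ψ-IP overlapped in every condition. The mean log2 difference was -0.99, lower after Ψ-IP (exact permutation test, p = 0.0808, adjusted p = 0.0808). It ran from -1.29 to -0.67 under the alternatives, and its unadjusted exact permutation p was under 0.05 without WT input replicate B (p = 0.0393), WT Ψ-IP replicate C (p = 0.047), KD3 Ψ-IP replicate A (p = 0.0195) or KD6 Ψ-IP replicate C (p = 0.025).

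**Figure D3:**
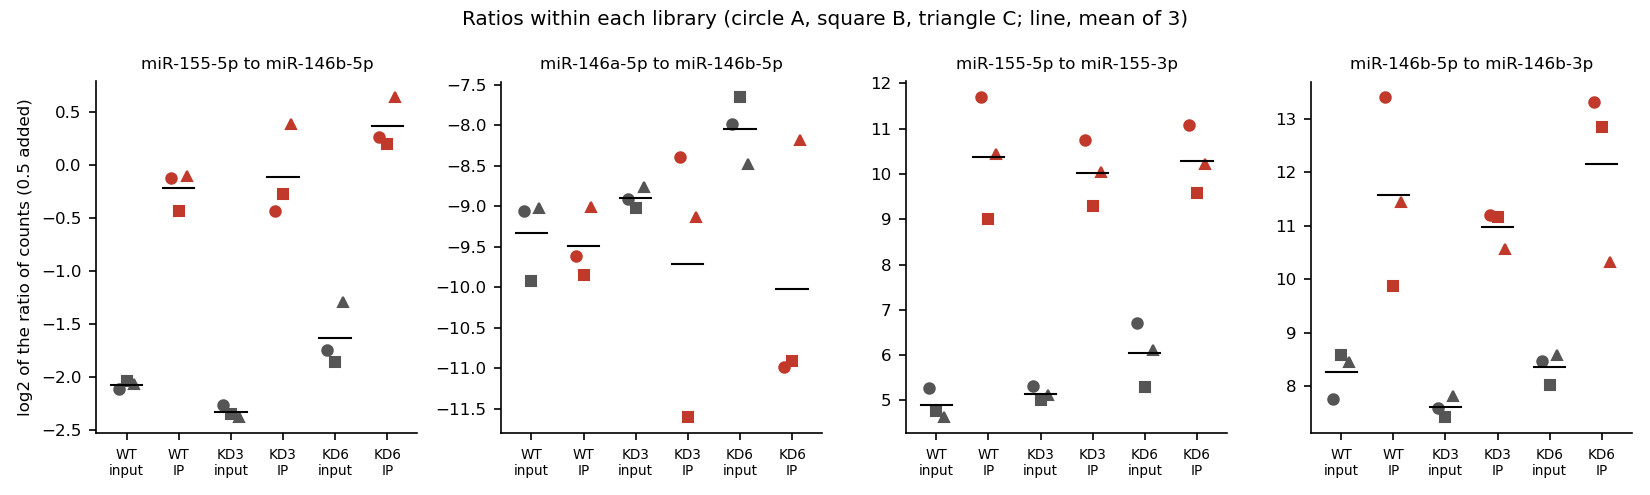
The log2 ratio of 2 miRNAs within each library, 0.5 counts added, by group, with points for replicates and a line for the mean of 3 (grey, input; red, Ψ-IP). The ratios of miR-155-5p to miR-146b-5p and of guide to passenger strand lie higher in all Ψ-IP libraries than in the inputs of the same condition, and the ratio of miR-146a-5p to miR-146b-5p overlaps.

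The next question was whether enrichment changed after Pus1 knockdown. For miR-155-5p, the change in the log2 ratio of IP to input was 0.20 ± 0.28 (SE) in KD3 against WT, 0.45 ± 0.29 in KD6 against WT and 0.26 ± 0.29 in KD6 against KD3, and none passed (edgeR, adjusted p = 0.997, 0.397 and 0.653). The 95% intervals ran from -0.36 to 0.75, from -0.11 to 1.01 and from -0.31 to 0.82. The 3 changes share libraries. For miR-146b-5p the changes were -0.19 ± 0.27, 0.37 ± 0.27 and 0.56 ± 0.27 in the same order, and none passed (edgeR, adjusted p = 0.997, 0.479 and 0.277). For miR-146a-5p they were -0.33 ± 0.89, -1.05 ± 0.92 and -0.72 ± 0.94 (edgeR, adjusted p = 0.997, 0.565 and 0.698).

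Few miRNAs of any kind passed in these comparisons: 0% of all tested in KD3 against WT, 1.12% in KD6 against WT and 0.187% in KD6 against KD3. In KD3 against WT, edgeR called 0 miRNAs, 15 had an unadjusted p under 0.05, and DESeq2 called 0. DESeq2 called 31 in KD6 against WT and 22 in KD6 against KD3. In KD6 against WT all 6 calls were of a higher ratio, whereas with total mapped reads as library size there were 51, with 0 of a higher ratio. No change of a member passed, and miR-146a-5p was not called enriched in WT, so no loss could be read for it. With TMM factors the intervals of miR-155-5p reach down to -0.36, a smaller loss than its enrichment in WT. Its KD6 against WT change was -0.41 with total mapped reads as library size. Without the shallow library the KD6 against WT change was 0.12 for miR-155-5p, 0.08 for miR-146b-5p and -1.25 for miR-146a-5p, and none passed (edgeR, adjusted p = 0.839, 0.889 and 0.506). The KD6 against KD3 change was then 0.11, 0.46 and -0.765, and none passed (edgeR, adjusted p = 0.866, 0.247 and 0.682).

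Input levels were compared between conditions in the same way. miR-155-5p had log2 differences of -0.35 ± 0.20 (SE) in KD3 against WT, 0.10 ± 0.20 in KD6 against WT and 0.45 ± 0.21 in KD6 against KD3, and none passed (edgeR, adjusted p = 0.649, 0.85 and 0.258). The last passed with total mapped reads as library size, at 0.76 (edgeR, adjusted p = 0.0476), and was 0.60 (adjusted p = 0.0646) without the shallow library. miR-146b-5p had differences of -0.09 ± 0.19, -0.37 ± 0.19 and -0.28 ± 0.19 (edgeR, adjusted p = 0.898, 0.332 and 0.515), and miR-146a-5p of 0.30 ± 0.59, 0.91 ± 0.63 and 0.61 ± 0.62 (adjusted p = 0.876, 0.444 and 0.663). Without the shallow library, KD6 against WT was 0.39 for miR-155-5p, -0.13 for miR-146b-5p and 1.125 for miR-146a-5p (edgeR, adjusted p = 0.289, 0.762 and 0.386), and KD6 against KD3 was -0.18 for miR-146b-5p and 0.69 for miR-146a-5p (adjusted p = 0.597 and 0.62). No member had a change in input abundance that passed the test with TMM factors.

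Over all miRNAs 0%, 5.06% and 5.99% passed in the 3 input comparisons. In KD3 against WT, edgeR called 0, 46 had an unadjusted p under 0.05, and DESeq2 called 10. A fit of only the libraries compared called 74 in KD3 against WT and 9 in KD6 against KD3 without a replicate block, and 86 and 8 with the letters as a block. The block on all libraries called 0 and 29. No member was called in these fits. The ranges of the 2 groups did not overlap for 37.6% of miRNAs in KD3 against WT, 29.4% in KD6 against WT and 23.8% in KD6 against KD3. For miR-146b-5p they did not overlap in any of the 3, and for miR-155-5p they did not in the first and the last.

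Ordered by mean CPM, miR-155-5p was lowest in KD3 input (200 ± 9.63, SD, n = 3), then WT input (255 ± 18.5), KD6 input (269 ± 61.9), KD3 Ψ-IP (1184 ± 284), WT Ψ-IP (1317 ± 131) and KD6 Ψ-IP (1932 ± 275). The ranges of WT and KD6 input overlapped, as did those of KD3 and WT Ψ-IP, and the other neighbours in this order did not. The gap between WT and KD6 Ψ-IP depended on the scaling. Without TMM factors, miR-155-5p was at 1135 to 1361 CPM in WT Ψ-IP and at 1366 to 1508 CPM in KD6 Ψ-IP. Levels were not tested between Ψ-IP groups, and the share of all miRNAs with such a gap was not counted, so no rise is read from it. For miR-146b-5p the order was KD6 input (828 ± 118), KD3 input (1006 ± 6.77), WT input (1070 ± 68.0), KD3 Ψ-IP (1258 ± 118), WT Ψ-IP (1529 ± 98.6) and KD6 Ψ-IP (1530 ± 397). WT input overlapped KD3 Ψ-IP, and WT Ψ-IP overlapped KD6 Ψ-IP. For miR-146a-5p all 6 means lay between 1.67 and 2.56 CPM.

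Other miRNAs linked to Toll-like receptor and NF-kB signalling did not move as a block. Of 13 on the list, 11 were tested, and in WT 5 were higher after Ψ-IP and 3 lower (edgeR, adjusted p under 0.05), with a median log2 ratio of 0.03 against -0.35 for all miRNAs. In KD3 5 were higher and 3 lower (median 0.38 against -0.25), and in KD6 5 were higher and 2 lower (median 0.35 against -0.28). Of all tested miRNAs 26.2%, 28.1% and 31.1% were called higher and 40.4%, 39.0% and 37.6% lower in the same comparisons. Without the shallow library 5 of the list were higher and 4 lower in KD6 (median -0.19 against -0.48 for all miRNAs).

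With TMM factors, the list members higher in all 3 conditions were let-7e-5p, miR-99b-5p and miR-125a-5p, which come from 1 cluster, with miR-9-5p and miR-222-3p. miR-9-5p is a regulator of Nfkb1. The zero of this scale depends on the scaling, and miR-99b-5p stood at only 0.68, 0.79 and 0.77 in WT, KD3 and KD6. Calls of the list under other scalings are not given here. let-7e-5p was close to miR-155-5p, with log2 ratios of 2.40 ± 0.21 (SE), 2.75 ± 0.21 and 2.78 ± 0.21 in WT, KD3 and KD6 (edgeR, adjusted p = 2.76e-09, 4.71e-10 and 3.12e-10), and 2.35 in KD6 without the shallow library (adjusted p = 1.35e-11). miR-21a-5p, the most abundant miRNA of the list, was lower after Ψ-IP, at -2.45 ± 0.24, -2.30 ± 0.24 and -1.25 ± 0.23 (edgeR, adjusted p = 1.64e-08, 3.98e-08 and 6.11e-05), and -1.24 in KD6 without the shallow library (adjusted p = 1.56e-05). miR-147-3p was also lower in all 3 conditions, and miR-187-3p in WT and KD3. In the fit of all 18 libraries miR-125b-5p, miR-132-3p and miR-221-3p did not pass in any condition, and miR-212-3p and miR-223-3p were too low to test. The KD6 counts without the shallow library, 5 higher and 4 lower, include calls that this fit did not make. None of the 11 passed in a change of enrichment, while without the shallow library miR-21a-5p passed, with a change of 1.21 in KD6 against WT (edgeR, adjusted p = 0.0438) and 1.26 in KD6 against KD3 (adjusted p = 0.0306). In input 2 were lower in KD6 than in WT, miR-99b-5p at -0.88 ± 0.14 (edgeR, adjusted p = 0.00121) and let-7e-5p at -0.76 ± 0.20 (adjusted p = 0.0247), beside 4.68% of all miRNAs. Without KD6 input replicate C neither passed, at -0.39 and -0.49 (edgeR, adjusted p = 0.608 and 0.341). Leaving out any other single library of the 2 groups also lost the call of let-7e-5p, and lost that of miR-99b-5p except when the shallow library was left out. In input for KD6 against KD3, 0 of the list passed in the fit of all libraries. Without the shallow library 2 were higher and 0 lower, beside 48 of 585 miRNAs called in either direction.

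**Figure D4:**
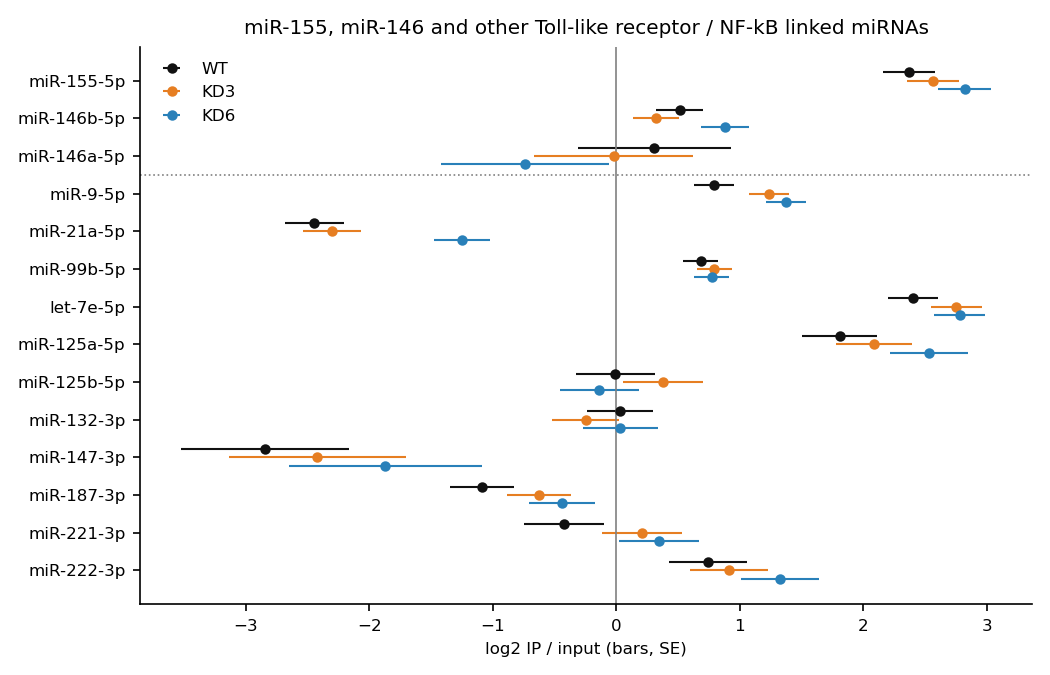
The log2 ratio of IP to input with its SE in WT, KD3 and KD6 for the 3 members (above the dotted line) and the 11 tested miRNAs of the Toll-like receptor and NF-kB list. miR-155-5p and let-7e-5p lie farthest to the right in WT, and miR-147-3p and miR-21a-5p farthest to the left.

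Across the 18 libraries, the miRNAs most like miR-155-5p in log2 CPM were miR-1198-5p (Pearson's r = 0.979), miR-92a-3p (0.978) and let-7d-3p (0.974), among 150 others with a mean of at least 100 CPM. Those most like miR-146b-5p were miR-361-3p (0.937), miR-128-3p (0.924) and miR-130b-5p (0.923), and miR-155-5p itself had r = 0.80 with miR-146b-5p. For miR-146a-5p the nearest were miR-125b-5p (0.718), miR-484 (0.672) and miR-191-5p (0.649), and its r with miR-146b-5p was -0.065. These values describe 18 libraries that share the split into input and Ψ-IP and the library scaling.

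Uridine content was compared because Ψ is made from uridine. miR-155-5p had 9 uridines in 23 bases (39.1%), miR-146a-5p 7 in 22 (31.8%) and miR-146b-5p 6 in 22 (27.3%), and the passenger strands miR-155-3p and miR-146b-3p had 33.3% and 27.3%. Of the 462 tested miRNAs with a RefSeq sequence (86.5% of 534), 84.6% had a lower uridine share than miR-155-5p, and the median was 27.3%. miR-155-3p, lower after Ψ-IP, had 33.3% uridine, and miR-146b-5p, above the median log2 ratio of all miRNAs, had 27.3%. Across these 462 miRNAs Spearman's rho with the log2 ratio was 0.085 in WT, 0.092 in KD3 and 0.112 in KD6 for the uridine share and 0.195, 0.195 and 0.182 for the share of G and C, as a description, since miRNAs share libraries and families. miR-155-5p was also poor in G and C (34.8%), with 4.76% of the miRNAs below it. Which uridines carried Ψ was not measured.

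**Figure D5:**
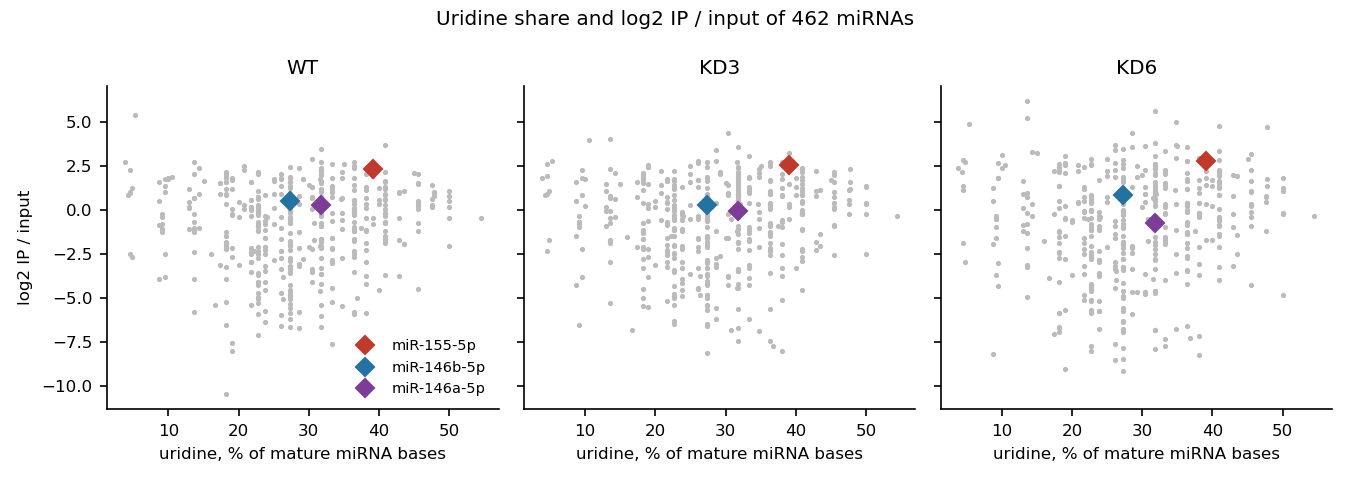
Uridine share of the mature miRNA against its log2 ratio of IP to input in each condition, with 1 grey dot for each of 462 miRNAs and diamonds for the 3 members. The grey cloud is wide at every uridine share, and miR-155-5p (39.1% uridine) lies near its upper edge while miR-146b-5p (27.3%) and miR-146a-5p (31.8%) lie inside it.

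A further measure accompanies these results. Mapped reads that fell in no miRNA row made up 5.47% to 9.96% of reads in input and 14.8% to 38.2% in Ψ-IP libraries. In input the share was 5.5% to 5.9% in WT, 9.4% to 9.9% in KD3 and 6.9% to 10.0% in KD6. In Ψ-IP libraries it was 14.8% to 18.6% in WT, 27.9% to 38.2% in KD3 and 23.2% to 30.3% in KD6. The composition of the libraries thus moved with the Ψ-IP and differed between conditions, and the cause was not tested. CPM values were scaled on miRNA rows alone, so these reads did not enter them. They did enter with total mapped reads as library size. The log2 ratio of IP to input of miR-146b-5p was then -0.007 in KD3 and 0.019 in KD6, while miR-155-5p still passed in every condition (edgeR). The ratio of miR-155-5p to miR-146b-5p does not depend on this scaling.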

How the data were processed

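Small RNA libraries from 6 groups (WT, KD3 and KD6 cells, input and Ψ-IP) with 3 replicates each were analysed. Per the study's methods, the authors trimmed the 3′ adapter and mapped reads with the SeqImp pipeline (version not given in the sources used here) on mm10, with Ensembl 89 and miRBase 21. They deposited estimated counts per mature miRNA and locus, not normalized, in which a read with several matches is divided. A second deposited column, the number of distinct sequences, was not used for any result.

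The row with the largest total was kept for each miRNA, and counts were rounded. The total row was left out of tests. Counts were fitted in edgeR 4.0.16 (R 4.3.3) with filterByExpr, TMM factors and 6 group means over 18 libraries with no block, and calls were made at an adjusted p (Benjamini-Hochberg) below 0.05. CPM values use TMM library sizes. Standard errors (SE) were obtained from each log2 ratio and its F statistic, and 95% intervals are normal intervals from them. Ratios within a library had 0.5 counts added. DESeq2 1.42.0 and other scalings were alternatives. The fit was tested on simulated data. Named miRNAs were the 3 members, the other arms, the 3 miRNAs most correlated with each member, and the signalling list. The members and lists were chosen with earlier results of these data known. Same-letter correlations of deviations (A to C) were positive for every letter only between input groups. They were 0.217 to 0.587 for KD3 and WT, 0.241 to 0.323 for KD6 and KD3 and 0.071 to 0.401 for KD6 and WT. Libraries of different letters were not correlated as a baseline, so whether the letters pair libraries was not settled. Coordinates are 1-based (GRCm38.p6, RefSeq; gene overlaps from GENCODE M21 on the same assembly, which mm10 also names).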

Additional observations from a re-analysis of the deposited data

How the results depend on the processing

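The enrichment of miR-155-5p passed under all 11 other settings and with each library left out, in every condition, at log2 ratios of 1.95 to 3.49. The ratios of miR-155-5p to miR-146b-5p and of guide to passenger strand kept their direction and stayed under 0.05 in all 21 alternatives. For each change below the cause was not tested. For miR-146b-5p, IP against input was 0.37 in WT and 0.31 in KD6 without a filter, no longer past the threshold, and 0.019 in KD6 with total mapped reads as library size. In KD3 it passed with RLE factors (0.58), upper-quartile factors (0.99), library size without factors (0.51) and DESeq2 (0.58), and was -0.007 with total mapped reads. With 1 library left out it was 0.46 to 1.29 in WT, 0.10 to 0.84 in KD3 and 0.38 to 1.30 in KD6. For miR-146a-5p the KD3 value turned positive with RLE factors (0.245), upper-quartile factors (0.65), library size without factors (0.19), a mean of at least 10 counts (0.058) and DESeq2 (0.25), and the KD6 value with upper-quartile factors (0.037). With 1 library left out it was 0.031 to 1.21 in WT, -0.74 to 0.59 in KD3 and -2.58 to 0.43 in KD6.

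Changes between conditions, none past the threshold, crossed 0 as follows. With total mapped reads, miR-155-5p was -0.148 for KD3 against WT, -0.41 for KD6 against WT and -0.265 for KD6 against KD3, and miR-146b-5p -0.495 for KD6 against WT. With library size without factors, miR-155-5p was -0.24 for KD6 against WT and -0.38 for KD6 against KD3, and miR-146b-5p -0.32 and -0.061. Without a filter, miR-155-5p was -0.057 for KD6 against KD3 and miR-146b-5p -0.062 for KD6 against WT. With 1 library left out, miR-155-5p was -0.235 to 0.13 for KD3 against WT and -0.034 to 0.34 for KD6 against KD3, and miR-146b-5p -0.135 to 0.14 for KD6 against WT. In input, miR-146b-5p for KD3 against WT was 0.054 with RLE factors, with a mean of at least 10 counts and with DESeq2, 0.031 with upper-quartile factors, 0.11 without a filter, 0.057 with only the libraries compared or with a replicate block on these, and 0.003 to 0.063 with 1 library left out. For KD6 against WT it was 0.028 without a filter and -0.13 to 0.042 with 1 library left out. For KD6 against KD3 it was 0.021 with library size without factors, 0.022 with total mapped reads, and -0.18 to 0.028 with 1 library left out. miR-155-5p in input, KD6 against KD3, passed with total mapped reads (0.76). The ratio of miR-146a-5p to miR-146b-5p was -1.29 to -0.67 with 1 library left out.

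The replicate block changed no call of a member, and with it the WT value of miR-155-5p was 2.37. The block on only the libraries compared was chosen after seeing the data. The number of miRNAs past the threshold stayed within 1.5 times in the 3 comparisons of IP with input. It ran from 0 to 51 (6 as reported) for the change in KD6 against WT, 0 to 48 (1) in KD6 against KD3, 0 to 1 (0) in KD3 against WT, and in input 0 to 86 (0) for KD3 against WT, 0 to 30 (27) for KD6 against WT and 2 to 48 (32) for KD6 against KD3. The change in KD6 against KD3 had 48 without KD6 Ψ-IP replicate C, and the input comparison of KD6 with KD3 had 48 without KD6 input replicate A and 2 without KD3 input replicate A, KD3 input replicate C or KD6 input replicate B. In input for KD3 against WT the count was 74 with only the libraries compared, 86 when a block was added to that fit, and 0 with the block on all libraries. The 0 in input for KD6 against WT came from leaving out KD6 input replicate C. Depth limits the shallow KD6 input library, where a count of 0 allows up to 3 counts, and limits miR-146a-5p and the passenger strands in all libraries. Intervals cover the spread between these libraries only.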
